A study of Rattus norvegicus with 6 samples.

Results

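Genes for cytokines, chemokines and their receptors were examined in the livers of rats that had received tienilic acid (TA), a diuretic drug that was withdrawn because it caused hepatitis in some patients. The set holds the probe sets of the Affymetrix rat array whose only gene symbol begins with Ccl, Cxcl, Ccr, Cxcr, Tnfsf or Tnfrsf, or with Il and a digit, or is Tnf. It has 141 probe sets for 111 genes, out of 20826 probe sets for 14217 genes with 1 symbol each. Of these genes, 27 are chemokine ligands, 12 chemokine receptors, 7 ligands and 14 receptors of the tumour necrosis factor (TNF) family, and 51 are named as interleukins or interleukin receptors. A further 2 probe sets for Il13ra1 share their symbol with a pseudogene and were left out.

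The animals were male Sprague Dawley rats, which received TA at 100 mg/kg in sodium bicarbonate by gavage, or sodium bicarbonate alone as vehicle. Livers were taken either 6 h after a single dose or at 24 h, in which case a second dose had followed the first by 16 h. Each time is covered by 2 TA animals on separate arrays and by 1 array for the vehicle, whose RNA was pooled from 2 rats, so that 8 rats lie behind the 6 arrays. The vehicle groups therefore have no replicate, both treated animals of a time are compared with the same pool, and the spread between animals is measured in the TA groups only.

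Chemokines are small secreted proteins that bind G protein-coupled receptors and direct the migration of leukocytes. The C-C and C-X-C families are named for the spacing of their first cysteines. TNF family ligands act through trimeric receptors that recruit TRAF adaptors and activate NF-kB, and many interleukin receptors signal through JAK kinases and STAT factors. In liver, Kupffer cells, the resident macrophages, are a source of TNF, interleukin 1 and interleukin 6 after injury, and hepatocytes answer interleukin 6 through the receptor Il6r and its signalling partner gp130 (Il6st) with acute phase proteins.

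The promoters of some of these genes carry the kappaB consensus, the binding sequence of NF-kB. RefSeq promoter sequences on build GRCr8 were matched for 83 of the 111 genes. In the 250 bases before the start, the consensus on either strand was found in 13 of the 83 genes (15.7%), against 3.54% of all 33469 promoters. Of these 13 genes, 7 belong to the 40 matched genes with all probe sets near the floor of the array values, described below, and 6 to the other 43. Stretches of 60 bases are shown for ligands on both sides of that division, with each match in capitals, because the inflammatory ligands whose promoters carry the motif were not all alike in signal. A further ligand with the consensus, Ccl9, was at 12.82 to 13.20 (log2) across the arrays, and its stretch is not shown. Of those shown, Ccl20, Cxcl2, Cxcl6 and Il6 lay near the floor on every array, and Cxcl1, Cxcl10 and Cxcl11 did not. The stretches lie, in the order given, at chr9:91837045-91837104 (plus strand), chr14:17467294-17467353 (minus), chr14:17596470-17596529 (minus), chr4:5894609-5894668 (minus), chr14:17479370-17479429 (minus), chr14:15988854-15988913 (plus) and chr14:15973629-15973688 (plus), all in the promoter before the annotated start and read 5′ to 3′ on the gene's strand.
Ccl20: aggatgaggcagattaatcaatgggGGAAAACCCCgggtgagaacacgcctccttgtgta
Cxcl2: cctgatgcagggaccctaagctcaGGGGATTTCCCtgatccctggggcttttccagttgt
Cxcl6: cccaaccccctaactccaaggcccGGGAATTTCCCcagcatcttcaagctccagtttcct
Il6: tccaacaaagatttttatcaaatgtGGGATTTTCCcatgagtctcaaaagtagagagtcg
Cxcl1: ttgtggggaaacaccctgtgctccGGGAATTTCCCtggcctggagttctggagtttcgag
Cxcl10: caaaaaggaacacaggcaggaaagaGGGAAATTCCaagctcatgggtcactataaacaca
Cxcl11: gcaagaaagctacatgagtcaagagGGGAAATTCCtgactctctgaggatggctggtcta

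Much of the set gave little or no signal in these livers. The deposited log2 values have a dense floor at 2 to 3, where differences are compressed, and a value under 3 was taken as near the floor. By this measure 73 of the 141 probe sets (51.8%) were near the floor on all 6 arrays, against 35% of all probe sets with 1 symbol. For 55 of the 111 genes this held for every probe set, against 3930 of all 14217 genes. The 55 include Tnf itself, at 2.25 to 2.28 and 2.65 to 2.77 on its 2 probe sets, and Il6, at 2.42 to 2.50. They also include the anti-inflammatory Il10 (2.22 to 2.26), the neutrophil attractants Cxcl2 (2.15 to 2.18) and Cxcl6, Ccl20, which attracts Ccr6-bearing cells, both chains of interleukin 12 (Il12a and Il12b), and the T cell cytokines Il4, Il13 and Il17f. A value near the floor gives an upper bound on the signal of a probe set and does not show that the RNA was absent.

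The chemokine receptors were the family with the highest share near the floor. Of the 15 chemokine receptor probe sets, 12 (80%) were near it on all arrays, against 41.7% of those of chemokine ligands, 60% and 56.2% of those of TNF family ligands and receptors, and 48.4% of those of interleukins and their receptors. The 12 include those of the monocyte receptor Ccr2, of the neutrophil receptors Cxcr1 and Cxcr2 and of Cxcr3, carried by activated T cells. Of 12 measured T and NK cell genes 7 were near the floor on all arrays (Cd2, Cd3d, Cd4, Cd5, Cd8a, Klrd1 and Nkg7), as were Camp and Csf3r among 4 measured neutrophil genes. The 9 measured hepatocyte markers and the 11 of macrophages and Kupffer cells were at 4 or more on every array. The mean of the macrophage list was 9.52 in the vehicle pool and 9.85 and 9.60 in the TA animals at 6 h, and 9.41, 9.20 and 9.58 at 24 h.

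**Figure D1:**
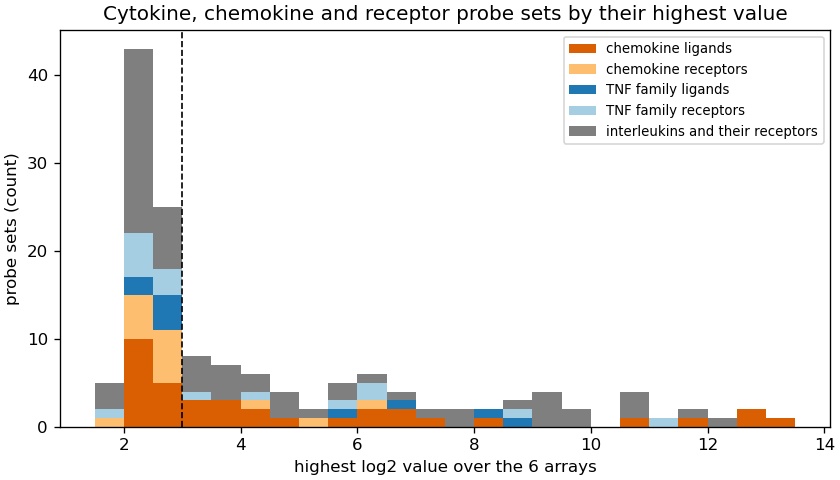
Number of probe sets (vertical axis) by the highest log2 value over the 6 arrays (horizontal axis, bins of 0.5), stacked by family, with a dashed line at 3. The 73 probe sets left of the line were near the floor on all 6 arrays.

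Of the other probe sets, 61 were at 3 or more on every array and 7 crossed that level. The 73 near the floor varied little, with a median range over the 6 arrays of 0.04 and a largest one of 0.47 (log2). The 61 had a median range of 0.77. The range of all probe sets at this level was not computed, so it is open whether 0.77 is particular to the set. Treatment, time, fluidics run and single animals all enter this range. There were 35 genes with a probe set at 4 or more on every array.

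No probe set of the set passed the test for an effect of TA. Group means were fitted with limma and adjusted by the Benjamini-Hochberg method over all 18625 probe sets above a filter on low values, 72 of which are in the set. At 6 h, 0 of the 72 had an adjusted p under 0.05 and the smallest was 0.64, against 0% called among all tested. An unadjusted p under 0.05 was found for 4 (5.56%), against 5.84% of all tested. For 24 h the count was also 0 of 72 (lowest adjusted p 0.90), against 0.00537% (1 probe set) called among all tested, and 3 (4.17%) had an unadjusted p under 0.05, against 5.28% of all. The difference between the effects at the 2 times was called for 0 of 72, against 0.00537% (1 probe set) of all tested, with 4 (5.56%) at an unadjusted p under 0.05, against 4.8% of all. These shares of unadjusted p-values in the set are near those over all tested probe sets. The error rests on 2 residual degrees of freedom, and a missed threshold does not show that the values were alike.

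By size, few of the 141 probe sets stood apart from the vehicle pool in both animals. At 6 h, 0 exceeded the pool by 1.5-fold or more in both animals (0.499% of all 31042 probe sets did) and 1 was at least 1.5-fold lower in both (1.11% of all). At 24 h, 1 was higher (0.554% of all) and 1 lower (0.954% of all). The median log2 difference over the 111 genes was -0.01 at 6 h and -0.01 at 24 h, like the -0.01 over all 14217 genes at each time. Genes near the floor, where differences are compressed, are counted in these medians. Over the genes of the set above the filter the medians were -0.0076 at 6 h and -0.0105 at 24 h. With the vehicle pool of the other time as the control, the sign of the difference turned for 27 of the 72 tested probe sets at 6 h and for 21 at 24 h.

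**Figure D2:**
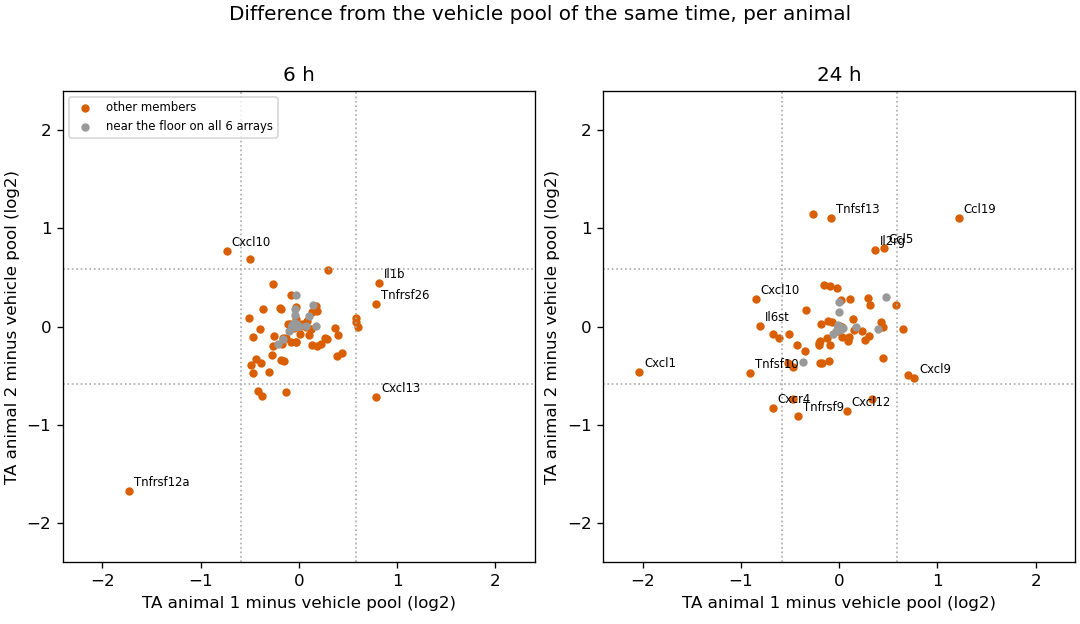
Log2 difference of TA animal 1 (horizontal axis) and TA animal 2 (vertical axis) from the vehicle pool of the same time for the 141 probe sets, with those near the floor on all arrays in grey and dotted lines at 1.5-fold. Tnfrsf12a at 6 h, and Ccl19 and Cxcr4 at 24 h, lie beyond 1.5-fold in both animals in the same direction, while points such as Cxcl10 and Cxcl13 at 6 h lie on opposite sides.

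Among the chemokine ligands, Ccl6 and Ccl9, C-C chemokines of myeloid cells, were measured clearly on every array. Ccl6 was at 12.42 in the vehicle pool and 12.78 and 12.40 in the TA animals at 6 h, and at 12.47, 12.40 and 12.52 at 24 h. Ccl9 was at 13.09, 12.82 and 12.89 at 6 h and at 13.20, 13.08 and 13.08 at 24 h. Ccl9 was thus lower than the shared pool of its time in both treated animals at 6 h (by 0.23 ± 0.10) and at 24 h (by 0.12 ± 0.10). The limma adjusted p was 0.90 and 1.0. From the pool of the other time the animals differed by -0.34 at 6 h and -0.01 at 24 h. Here and below, ± gives the SE of limma's fit, which pools the spread of the TA animals over both times. It is not the spread of the 2 animals of one time, and a vehicle pool is given the same variance as a single animal. In the reference annotation Ccl5, Ccl9, Ccl6, Ccl3 and Ccl4 are neighbouring genes. Ccl3, a macrophage inflammatory protein, stayed between 3.52 and 3.54 on all arrays. Its range of 0.02 was smaller than the median range of the probe sets near the floor (0.04), and whether its level is above background was not tested. Ccl4 was at 3.73 in TA animal 2 of 6 h and between 2.55 and 3.05 on the others.

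Ccl5, a T cell attractant also called RANTES, was at 6.70 in the vehicle pool and 6.57 and 6.04 in the TA animals at 6 h, and at 5.53, 5.98 and 6.33 at 24 h. Its difference from the pool was thus negative in both animals at 6 h (-0.40 ± 0.30) and positive in both at 24 h (0.63 ± 0.30), and neither passed limma's test. Against the pool of the other time both signs turned, to 0.77 at 6 h and -0.54 at 24 h. The vehicle pools of 6 h and 24 h were themselves the highest and the lowest of the 6 arrays. Ccl19, a ligand of Ccr7, had a value of 3.40 in the pool of 24 h, whereas the 5 other arrays lay between 4.46 and 4.61. Its log2 difference at 24 h, 1.16 ± 0.11 (limma adjusted p = 0.90), rests on that pool, since the TA animals of 24 h differed by 0.05 from the pool of 6 h.

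The C-X-C ligands were likewise without a called difference. Cxcl12, which keeps leukocytes and progenitors in tissue through Cxcr4, was at 12.63, 12.86 and 12.45 at 6 h and at 12.84, 12.66 and 12.47 at 24 h on its probe set with the highest mean. On that probe set both treated animals of 24 h were below their pool (-0.27 ± 0.22), and its other 2 probe sets gave -0.44 ± 0.21 and -0.39 ± 0.44, the last with 1 animal above the pool. Cxcl9, Cxcl10 and Cxcl11 are neighbouring genes whose products bind Cxcr3 and that interferon gamma induces. Cxcl10 was at 5.35 in the pool and 4.62 and 6.12 in the animals of 6 h, on either side of it, and at 4.30, 3.45 and 4.58 at 24 h. Cxcl9 was at 7.85, 8.02 and 8.05 at 6 h and at 7.02, 7.78 and 6.50 at 24 h, again on either side of the pool at 24 h. Its other probe set, at 5.10 to 6.39, also had the animals of 24 h on either side of the pool. Cxcl11 stayed within 10.51 and 10.99 on all arrays. Cxcl13, a B cell attractant, was at 6.00 in the pool of 6 h with the animals at 6.79 and 5.28. Cxcl1, the neutrophil attractant whose promoter stretch is shown above, was between 4.18 and 4.37 on 4 arrays and at 2.14 and 3.72 in the TA animals of 24 h, the first of them near the floor.

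Among the interleukins, Il1b, the secreted pro-inflammatory interleukin 1, was higher than the pool in both TA animals of 6 h. It was at 5.2 in the pool and at 6.01 and 5.64 in the animals, a log2 difference of 0.63 ± 0.20 (limma adjusted p = 0.84, unadjusted p = 0.039), and at 5.48, 5.38 and 5.28 at 24 h. Both animals of 6 h were the highest of the 6 arrays, although animal 2 was under 1.5-fold from the pool. From the pool of 24 h the animals of 6 h differed by 0.35. Il1a was between 6.08 and 6.68 on all arrays on 1 probe set and near the floor on the other. Il1rn, the antagonist of the interleukin 1 receptor, was between 2.81 and 3.19. Il18, an inflammasome product, was at 6.69 in the pool and 6.99 and 7.27 in the animals at 6 h (0.44 ± 0.24), and at 7.32, 7.30 and 7.70 at 24 h. Against the pool of 24 h the sign at 6 h turned, to -0.19. Its inhibitor Il18bp was between 7.33 and 7.85. Il33, an alarmin of the interleukin 1 family released by damaged cells, was at 10.05, 10.49 and 9.78 at 6 h and at 10.35, 10.65 and 10.64 at 24 h on 1 probe set, so that at 6 h the animals lay on either side of the pool. Its other probe set had differences of 0.05 ± 0.33 at 6 h and 0.01 ± 0.33 at 24 h. Il15, a growth factor of NK and memory T cells, was at 5.70 in the pool of 6 h and 5.32 and 5.33 in its animals (-0.38 ± 0.12, limma adjusted p = 0.84). The pool of 24 h was at 5.03, and from it the animals of 6 h differed by 0.29.

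Of the TNF family ligands, Tnfsf10, the death ligand TRAIL, was at 8.14, 7.87 and 8.57 at 6 h and at 8.21, 7.30 and 7.74 at 24 h, lower than the pool in both animals of 24 h by a mean of 0.69 (-0.69 ± 0.39, limma adjusted p = 1.0). Tnfsf13, the B cell factor APRIL, was at 6.63, 6.13 and 6.72 at 6 h and at 7.15, 7.07 and 8.25 at 24 h, so that its difference of 0.51 ± 0.61 rests on animal 2. Its other probe set had the same high animal, at 5.92 against 4.51 in animal 1 and 4.78 in the pool. Tnfsf12, or TWEAK, was between 6.27 and 6.79 on all arrays.

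Tnfrsf12a, the receptor of TWEAK, also called Fn14, had the largest difference from vehicle in the set at 6 h. Its value was 6.16 in the pool of 6 h, against 4.44 and 4.49 in the TA animals, a log2 difference of -1.70 ± 0.16 (limma adjusted p = 0.64, unadjusted p = 0.00072). At 24 h it was at 5.0 in the pool and 5.22 and 4.95 in the animals, a difference of 0.09 ± 0.16. The pool of 6 h was the highest of the 6 arrays and the TA animals of 6 h the lowest, and from the pool of 24 h those animals differed by -0.53. By the recorded fluidics times, the vehicle pool and TA animal 1 of 6 h went through fluidics in 1 run and the remaining 4 arrays in a later one. Within the first run the difference was -1.72, from animal 1 alone. Its promoter holds TTCNNNGAA, a sequence bound by STAT factors, which was found on either strand in the window of 8.43% of the 83 genes and of 7.67% of all promoters. The stretch is shown, with the match in capitals, because this gene had the largest difference at 6 h. It lies at chr10:13213751-13213810 on the minus strand of GRCr8. Of the genes searched, Cxcl11 alone held this sequence and the kappaB consensus, at separate places.
Tnfrsf12a: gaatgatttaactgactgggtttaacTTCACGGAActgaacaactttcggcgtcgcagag

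No other TNF family receptor was 1.5-fold from vehicle in both animals. Tnfrsf1a, the main TNF receptor of most cells, was at 10.96, 10.77 and 11.15 at 6 h and at 10.83, 10.63 and 10.64 at 24 h (0.00 ± 0.20 and -0.20 ± 0.20). Tnfrsf1b, the second TNF receptor, was between 5.53 and 6.31. The probe sets of Tnfrsf14 and Tnfrsf21 were near the floor, and Tnfrsf11b, the decoy receptor osteoprotegerin, ranged from 4.58 to 5.79.

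Cxcr4, the receptor of Cxcl12, was at 4.22, 4.79 and 4.31 at 6 h and at 5.21, 4.53 and 4.38 at 24 h on 1 probe set. The difference at 24 h was -0.75 ± 0.25 (limma adjusted p = 0.94), with both animals at least 1.5-fold below the pool. The pool of 24 h was the highest of the 6 arrays, and from the pool of 6 h the TA animals of 24 h were higher by 0.24. A second probe set had the same order at 24 h, with 4.15 in the pool and 3.68 and 3.41 in the animals, and the remaining one was near the floor.

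Several interleukin receptors were well above the floor on every array. Il1r1, the signalling receptor of interleukin 1, was at 10.83, 10.44 and 10.81 at 6 h and at 10.13, 9.98 and 10.55 at 24 h. Its accessory chain Il1rap stayed between 10.31 and 10.67. Il17ra, which hepatocytes and many other cells carry, was between 9.01 and 9.27, Il4r between 8.38 and 8.83, and Il10rb, a chain shared by the receptors of interleukins 10 and 22, between 8.43 and 9.03. Il6r, the interleukin 6 receptor, was at 9.34 in the pool and 8.92 and 8.68 in the TA animals at 6 h, a difference of -0.53 ± 0.18 (limma adjusted p = 0.85, unadjusted p = 0.049), and at 7.98, 8.0 and 8.25 at 24 h (0.14 ± 0.18). The TA animals of 6 h were below the pool of 6 h and above that of 24 h, from which they differed by 0.82.

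**Figure D3:**
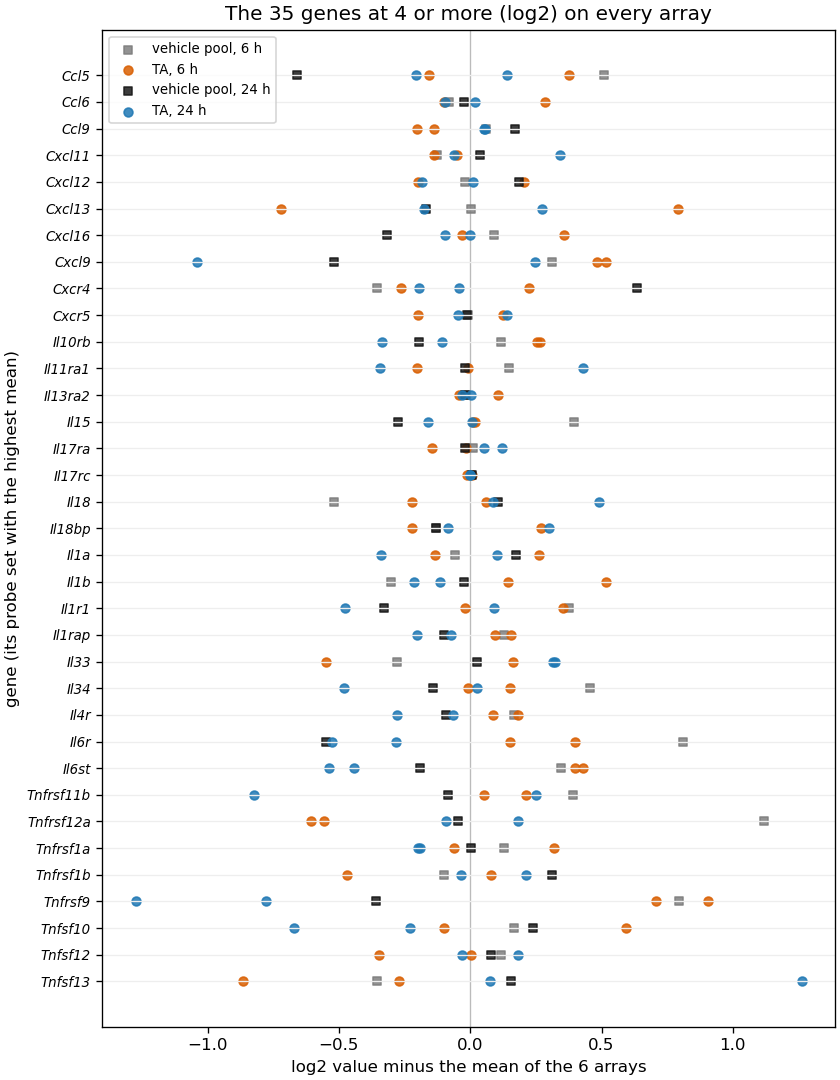
Log2 value minus the mean of the 6 arrays (horizontal axis) for the 35 genes with a probe set at 4 or more on every array, using the one with the highest mean; squares are vehicle pools and circles are single TA animals. For Il6st, Il6r and Tnfrsf9 the 3 arrays of 24 h lie left of the 3 arrays of 6 h. The same order, with smaller gaps for some, is seen for Il10rb, Il1rap, Il4r, Cxcl9 and Il15. For Tnfsf13 and Il18 the 3 arrays of 24 h lie right of those of 6 h. For Tnfrsf12a the vehicle pool of 6 h stands alone on the right.

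Some receptors differed in value between the times. Il6st, the gp130 chain through which interleukin 6 and its relatives signal, had 4 probe sets, and on each of them both TA animals of 24 h were below both TA animals of 6 h. On the one with the highest mean it was at 12.23 and 12.20 in the TA animals of 6 h and at 11.26 and 11.36 in those of 24 h, a log2 difference of -0.90 ± 0.08 (SE, n = 2 animals at each time; limma adjusted p = 0.16, unadjusted p = 0.00070). The other probe sets gave -1.0 ± 0.13 (adjusted p = 0.18), -0.95 ± 0.34 (0.35) and -0.69 ± 0.20 (0.28) by limma. The vehicle pools were in the same order on all 4, for example 12.15 at 6 h and 11.61 at 24 h on the first. The mean of the TA animals of 24 h differed from their own pool by -0.30 to -0.40, which passed limma's test on none of the 4.

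Tnfrsf9, the lymphocyte receptor also called 4-1BB, had a larger difference between the times, on its single probe set. It was at 8.51 in the pool and 8.62 and 8.43 in the TA animals at 6 h, and at 7.36, 6.94 and 6.44 at 24 h. The difference of TA at 24 h from TA at 6 h was -1.83 ± 0.21 (limma adjusted p = 0.17), and within 24 h the difference from the pool was -0.67 ± 0.26 (limma adjusted p = 0.97). Il6r followed the same order between the TA groups (-0.68 ± 0.15, limma adjusted p = 0.22), as did Il10rb (-0.48 ± 0.11, limma adjusted p = 0.23). Tnfrsf12a (0.62 ± 0.13, limma adjusted p = 0.22) and Tnfsf13 (1.24 ± 0.50, limma adjusted p = 0.39) were higher in the TA animals of 24 h.

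**Figure D4:**
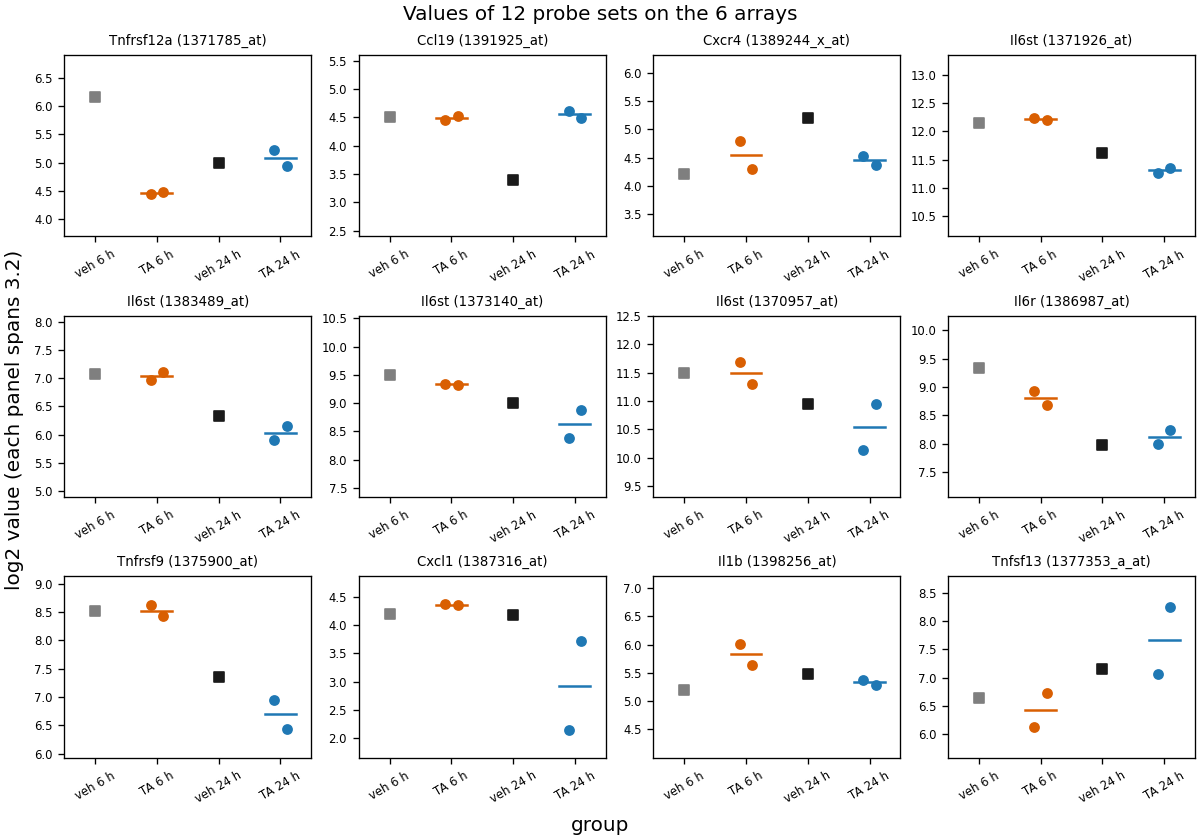
Log2 values (vertical axis, 3.2 units in each panel) of 12 probe sets in the 4 groups; squares are vehicle pools, circles are single TA animals and bars are means of the 2 animals. The 4 probe sets of Il6st, Il6r and Tnfrsf9 are lower at 24 h than at 6 h in vehicle and in TA, and Tnfsf13 is higher in both. Ccl19 and Tnfrsf12a each have 1 vehicle pool apart from the other arrays.

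Over the set, TA at 24 h against TA at 6 h was called for 0 of the 72 tested probe sets, against 0% of all tested (limma, smallest adjusted p in the set 0.16), and 8 (11.1%) had an unadjusted p under 0.05, against 14.8% of all tested. Of the 8, 7 were lower at 24 h, and of the 2760 among all tested 1290 were. The 7 were Tnfrsf9, Il6r, Il10rb, Il1b and several probe sets of Il6st. By size, 4 of the 141 (2.84%) had every animal of 24 h at least 1.5-fold below every animal of 6 h (1.01% of all 31042), namely Tnfrsf9, Cxcl1 and 2 of the probe sets of Il6st, and 0 were as far above (1.06% of all). The probe sets of Il6st share a gene and are not separate cases in either count. The time after the first dose and the number of doses differ together between these groups and cannot be told apart. All arrays of 24 h were in the later fluidics run, whereas the vehicle pool and TA animal 1 of 6 h were in the first. Time and run therefore cannot be told apart for the vehicle pools, and overlap in part for the TA groups. In whole liver, fewer cells of a type and less RNA per cell cannot be told apart either. Between the TA groups the median differences of the marker lists were -0.33 for macrophages, -0.29 for sinusoidal endothelium and -0.71 for stellate cells and fibroblasts, against -0.05 for hepatocytes. They were -0.0071 for T and NK cells, -0.0047 for neutrophils, -0.0305 for B cells and -0.1645 for cholangiocytes, lists with many genes near the floor. The part of these cell types in the results was not tested.

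Genes that carry the signals of these receptors were looked at beside them, as a list of 62 adaptors, kinases, transcription factors and feedback genes, 57 of them measured by 77 probe sets. By limma, 0 of its 60 tested probe sets were called at 6 h, at 24 h or between the times, and 8 (13.3%), 5 (8.33%) and 6 (10.0%) had an unadjusted p under 0.05, against 5.84%, 5.28% and 14.8% of all tested. At 6 h, 0 of the 77 passed 1.5-fold upward in both animals (0.499% of all probe sets) and 4 downward (1.11% of all). These were Socs2, a feedback inhibitor of JAK-STAT signalling, at 9.16 in the pool and 8.06 and 7.96 in the animals (-1.15 ± 0.10, limma adjusted p = 0.64), Birc2, an inhibitor of apoptosis bound to TNF receptors (-0.92 ± 0.12), Myd88, the adaptor of interleukin 1 and Toll-like receptors (-0.74 ± 0.19), and 1 of the 4 probe sets of Traf6 (-0.89 ± 0.70). The other probe sets of Traf6 had differences of -0.12 to -0.45 at 6 h. Against the pool of 24 h the TA animals of 6 h were higher for Socs2 (1.88) and Birc2 (0.38), and lower for Myd88 (-0.12) and Traf6 (-1.45). At 24 h, 1 of the 77 passed 1.5-fold upward in both animals (0.554% of all probe sets) and 2 downward (0.954% of all). The 1 upward was Socs2, now on the other side of its pool, at 6.13 in the pool and 6.98 and 6.99 in the animals (0.85 ± 0.10, limma adjusted p = 0.90). From the pool of 6 h it differed by -2.17. Stat3, which acts below gp130, was below the pool of 24 h in both animals on both of its probe sets, by 1.5-fold or more on 1 of them (-0.78 ± 0.29, and -0.28 on the other). The same probe set of Traf6, an adaptor shared by several of the receptors, was at 8.66 in the pool of 24 h and at 5.71 and 4.29 in the animals (-3.65 ± 0.70, limma adjusted p = 0.90), whereas the others had differences of -0.04 to -0.53. Between the TA groups, 0 of the 77 had every animal of 24 h at least 1.5-fold above every animal of 6 h (1.06% of all). As far below were 4 (1.01% of all), namely Socs2, Vcam1 (-1.06 ± 0.17, limma adjusted p = 0.19) and 1 probe set each of Stat3 and Traf6.

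A second list held 58 cytokines and receptors whose symbols are outside the rule, such as colony stimulating factors, interferon receptors and lymphotoxins. Of these 50 were measured, 37 of their 73 probe sets were near the floor on all arrays, and 0 of the 35 tested were called by limma in any of the 3 comparisons, with 1 (2.86%), 1 (2.86%) and 6 (17.1%) at an unadjusted p under 0.05, against 5.84%, 5.28% and 14.8% of all tested. None was 1.5-fold apart in both animals at 6 h, where 0.499% of all probe sets were higher and 1.11% lower. At 24 h, 0 of the 73 were higher (0.554% of all) and 1 was lower (0.954% of all). This was Cntf, at 5.66 in the pool and 4.77 and 4.74 in the animals (-0.90 ± 0.18, limma adjusted p = 0.90). That pool was the highest of the 6 arrays, and from the pool of 6 h the animals of 24 h differed by 0.01. Between the times, 0 of the 73 were 1.5-fold higher in every TA animal of 24 h (1.06% of all) and 2 were lower (1.01% of all). The 2 were among the 6 probe sets of Ifnar1, a chain of the type I interferon receptor (-0.87 ± 0.14 and -0.95 ± 0.10, limma adjusted p = 0.19 and 0.17).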

How the data were processed

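Liver RNA was measured on 6 Affymetrix Rat230_2 arrays. The authors deposited 1 log2 expression value per probe set and array (array medians 3.27 to 3.31). The submitters' processing notes name R 2.0.1, affy 1.5.8, RMA and GCRMA; which of the last 2 gave these values was not settled. The deposited array settings served to find the fluidics runs. For arrays, their number limits the precision.

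The 57 control probe sets were left out. Probe sets with a mean above the 40th percentile (2.82) were tested with limma 3.58.1 in R 4.3.3 (group means, 2 residual and 1.60 prior degrees of freedom, two-sided, Benjamini-Hochberg). Medians and counts by size used all probe sets, and a gene was represented by its probe set with the highest mean. The fit was tested on simulated data. The test of the difference between the effects at the 2 times was added later. Treated replicates are separate animals, and p-values measure the spread between them only.

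The members and lists were chosen with earlier results of these data known. Genes were named if at least 1.5-fold apart in every animal, or from 47 looked up, of which 41 had a probe set and the others were not analysed here. Other members described with values were chosen after these were seen.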

Additional observations from a re-analysis of the deposited data

How the results depend on the processing

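Under every alternative run, 0 probe sets of the cytokine set passed limma's threshold, including the replicate block, where the smallest adjusted p in the set was 0.96 at 6 h, 1.0 at 24 h and 0.18 between the times. Same-numbered animals are different rats and did not deviate together (correlation -0.08). Over all probe sets, the count called at 24 h, 1, was 0 with the replicate block, 0 with the fluidics run as a block, 0 with both vehicle pools as 1 control group, 2 with a prior that follows the mean level, and 0 to 2 without 1 TA array. Only the TA group of 6 h has arrays in both fluidics runs. At 24 h the fit with the run as a block is therefore the fit without either TA animal of 6 h, and is not a separate check. The median over the genes of the set at 24 h, -0.009, was 0.0005 with arrays centred on their medians. That of TA at 24 h against 6 h, -0.0032, was -0.0918 over genes above the filter, 0.0135 with centring, and -0.0202 to 0.0159 without 1 array. The count at least 1.5-fold apart at 6 h, 1, was 8 against the pool of 24 h, and 6 to 7 without 1 array. At 24 h, 2 became 1 at 2-fold, 9 against the pool of 6 h, and 10 to 11 without 1 array. Between the times, 4 became 1 at 2-fold and 9 to 11 without 1 array. Fewer animals must pass where an array is left out; the cause of the other changes was not tested. Against the pool of the other time, Cxcr4 at 24 h reversed from -0.75 to 0.24. Differences under 1.5-fold in 1 or both animals turned too, such as Il6r at 6 h (-0.53 to 0.82), Ccl5 at 6 h (-0.40 to 0.77) and 24 h (0.63 to -0.54), and Il15 at 6 h (-0.38 to 0.29). Il18 at 6 h did so as well (0.44 to -0.19). That pool moved 58 of 88 differences of named probe sets by more than 1 standard error, and quantile normalization moved 0 of 132. The count near the floor, 73, was 88 with the floor set at 4.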
